A study of Mus musculus with 20 samples.

Results

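The genes described here are those detected in non-growing oocytes that lack the chromatin remodeler Chd4 at postnatal day 1 (P1) and postnatal day 5 (P5), and the question is which parts of the postnatal change still occur in these cells. A gene was a member if it reached at least 1 TPM (a read count scaled by gene length and then to the same total in every library) in at least 2 of the 4 knockout libraries. This gave 15882 genes of the 53722 in the oocyte table, 11513 of them annotated as protein coding, and all lay within the 20470 genes that entered the test. The knockout group, labelled DcKO, had the genotype Chd4 f/-; Ddx4-Cre Tg/+, and its control group, labelled Dctrl, had Chd4 f/+; Ddx4-Cre Tg/+. Each group held 2 libraries at P1 and 2 at P5, made from total RNA of oocytes from the ovary of mice whose background mixed the strains C57BL/6, 129S1/Sv and FVB/NJ. All 4 groups therefore carried the Cre transgene, and the controls could lose 1 Chd4 copy. By genotype, the comparison is of cells with no intact copy against cells with 1 copy. How complete the deletion was in these oocytes was not tested. Ddx4-Cre is driven by a germ cell promoter and recombines from fetal life onward, so both ages follow the deletion. The labels do not say whether replicates came from separate animals or pools. The p-values measure only the spread between replicate libraries, estimated over all 16 oocyte libraries.

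Mouse oocytes enter meiosis before birth, assemble synaptonemal complexes that hold paired chromosomes together, and stop in prophase around birth. In the days that follow, each oocyte is enclosed by supporting cells in a primordial follicle, takes down much of its meiotic prophase programme and starts to accumulate transcripts of the growth phase, which encode the zona pellucida coat, secreted growth factors and proteins stored for the embryo. CHD4 is the ATPase of the NuRD complex, which slides nucleosomes and joins that activity to histone deacetylation.

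Chd4 itself stood at 4.32 and 1.9 TPM in the P1 knockout libraries and at 8.28 and 4.94 TPM at P5, against 24.7 and 31.2 TPM in the P1 controls and 14.5 and 17.9 TPM in the P5 controls. Every knockout library lay below every control library. This value counts reads of the whole gene, so transcript of its undeleted part and of cells without deletion cannot be told apart. The knockout change with age did not pass the test (log2 change 0.92, SE 0.499, adjusted p = 0.392). The recovered depth of the 8 libraries was 17.7 to 26.36 M reads, and they held 13952 to 16264 genes at 1 TPM or more. The oocyte markers Ddx4, Dazl, Dppa3, Sycp3 and Figla were detected in every library, and the 7 oocyte markers made up 4.9% to 8.25% of all TPM. Markers of granulosa and other supporting cells, 20 genes of which 9 were members, summed to 22.4 and 84.6 TPM in the P1 knockouts, 61.1 and 84.2 TPM in the P5 knockouts, 77.9 and 140.1 TPM in the P1 controls and 21.4 and 11.3 TPM in the P5 controls. The defining supporting-cell genes Foxl2 and Amh never passed 0.884 and 0.133 TPM, while Inha, an inhibin subunit, was at 5.00 and 12.7 TPM in the P1 knockouts and 13.1 and 43.8 TPM in the P5 knockouts, against 10.5 and 13.4 TPM and then 0.0750 and 2.18 TPM in the controls. The sum of this list was thus higher in the P5 knockout libraries than in the P5 controls, at up to 0.00842% of TPM in the P5 knockouts. Much of the P5 knockout sum came from Inha and from Gng13, at 16.8 and 12.2 TPM in the P5 knockouts against 3.43 and 1.15 TPM in the P5 controls. Krt18, a keratin of the list, was at 0.700 and 52.2 TPM in the P1 knockouts and 57.9 and 107.6 TPM in the P1 controls. At P5 it was at 16.3 and 5.17 TPM in the knockouts and 3.00 and 4.09 TPM in the controls. Whether the RNA of this list came from supporting cells or from oocytes, and its part in the results, was not tested. In these bulk libraries, fewer cells with a transcript and less transcript per cell cannot be told apart.

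Between P1 and P5, 1047 members changed in the knockout oocytes, 794 higher and 253 lower at P5 (limma on log2(TPM + 1), adjusted p under 0.05 over all tested genes). Over all 20470 tested genes the share called was 5.13%, with 3.89% higher and 1.24% lower. In the controls 816 members changed, 499 higher and 317 lower, beside 4.7% of all tested genes (2.72% higher and 1.98% lower). The age change itself differed between the genotypes for 49 members, 35 with a higher and 14 with a lower change in the knockout (0.313% of all tested genes, with 0.23% higher and 0.083% lower), and 1148 members had an unadjusted p under 0.05 for this difference. The median change over all members was near 0 in each case, at 0.038 in the knockout and 0.03 in the controls on the log2 scale. With 1 knockout library left out at a time, the knockout count was 562 without P1 replicate 1, 488 without P1 replicate 2, 370 without P5 replicate 1 and 374 without P5 replicate 2, and 211 genes were called in all of these fits and in the full one.

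The 2 genotypes' age changes rest on separate libraries and share the estimate of spread. The labels do not say whether knockout and control oocytes of 1 age shared litters or a collection day. A part of such sharing in the overlap was not tested. Of the 499 genes that rose in controls, 267 also rose in the knockout (53.5%), and 477 had a change above 0. Of the 317 that fell in controls, 99 also fell in the knockout (31.2%), and 294 had a change below 0. The 366 shared calls made up 44.9% of the control calls and 35% of the knockout calls, and 2 further members were called in opposite directions. Over all tested genes, members or not, the knockout called 48% of 556 control rises and 24.4% of 406 control falls. The control rises had a median log2 change of 2.24 in the controls, where they were chosen, and of 1.64 in the knockout. The control falls had medians of -1.31 and -0.70. The knockout change was at least 0.5 times the control change for 374 of the rises (74.9%) and 194 of the falls (61.2%). The difference between genotypes passed the test for 9 of the 499 rises and 5 of the 317 falls. For most members that missed the threshold in the knockout, a different age change was thus not shown. The difference also passed for 3 of 57 control rises and 12 of 89 control falls that were not members. None of these non-members was called in the knockout, where they did not reach 1 TPM in 2 libraries.

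**Figure D1:**
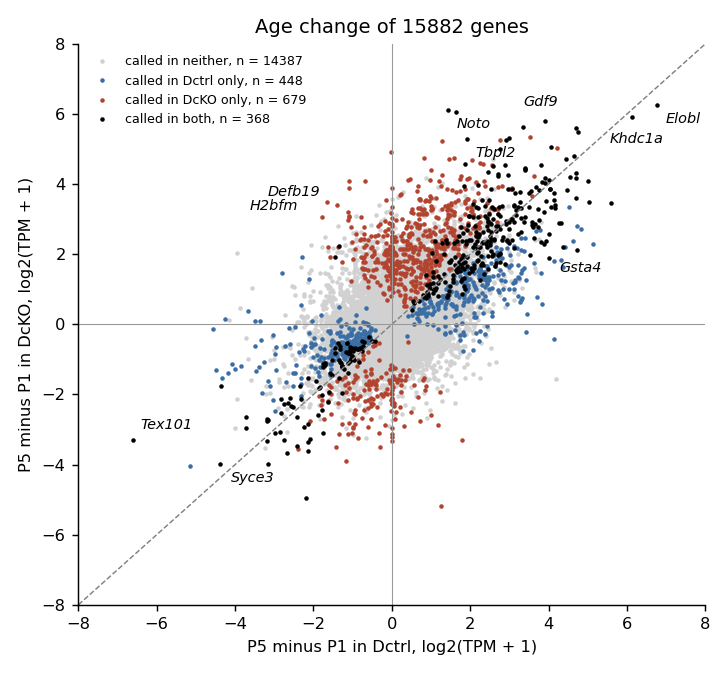
Log2 change from P1 to P5 of each member in the controls (x axis) and in the knockout (y axis), as differences of mean log2(TPM + 1) of 2 libraries each. Dark points are the 368 genes called in both genotypes, 366 of them in the same direction, and the dashed line marks equal change. Rises shared by both genotypes extend along the line at the upper right, with Elobl and Khdc1a at its end.

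Placed on an axis set by the controls, with the P1 control mean at 0 and the P5 control mean at 1 for each gene, the P1 knockout libraries had median positions of 0.0 and 0.0 over the 499 rises and 0.071 and 0.045 over the 317 falls. The P5 knockout libraries had median positions of 0.778 and 0.69 over the rises and 0.672 and 0.619 over the falls. Both P5 knockout libraries thus lay more than 0.5 of the way to the P5 controls for the median gene, in each direction, and short of them. The positions are a description, since the same control libraries chose the genes and set the axis, and a gene chosen for a large control change tends to show a smaller change in any other group.

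**Figure D2:**
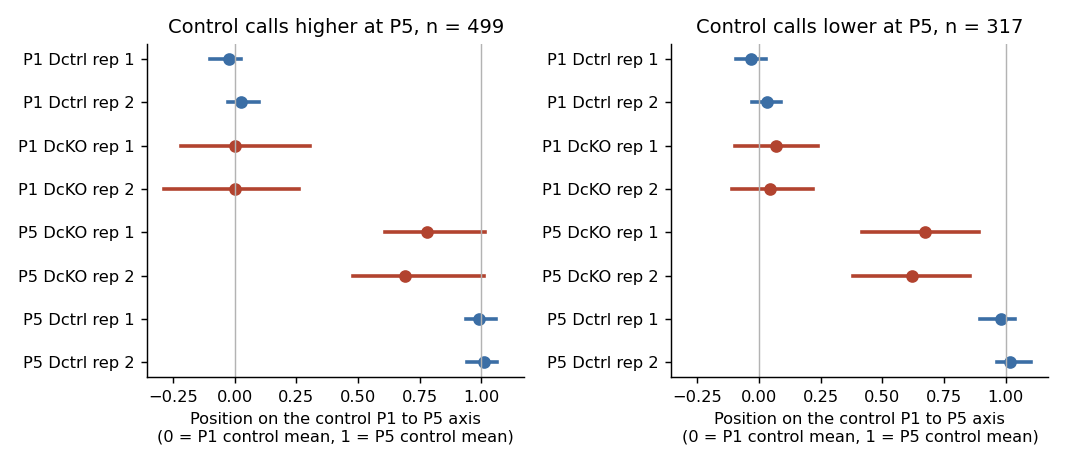
Position of each of the 8 libraries on the control P1 to P5 axis, over the 499 members that rose in controls (left) and the 317 that fell (right). Points are medians over genes and lines are the interquartile range over genes, and the P5 knockout medians lie between 0.619 and 0.778 in both panels.

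The converse set shows 1 library that stood between the genotypes. Of the 794 knockout rises, 267 were called in controls (33.6%) and 635 had a control change above 0, with a median of 2.30 in the knockout and 1.09 in the controls. For the 527 knockout rises that were not called in the controls, the median TPM was 0.0675 and 0.0671 in the P1 knockouts and 6.43 and 6.76 in the P5 knockouts. The same genes had medians of 0.668 and 0.854 TPM in the P1 controls, 3.13 TPM in P5 control replicate 1 and 1.08 TPM in P5 control replicate 2. P5 control replicate 1 was thus nearer to the P5 knockouts on these genes than its partner was. The difference between genotypes called 79 members without P5 control replicate 1 and 26 without P5 control replicate 2. Of the 794 rises, 178 were listed at 0 in both P1 knockout libraries, and of the 253 falls, 52 were listed at 0 in both P5 knockout libraries. Called genes were shorter than the members as a whole, with a median exon length of 1876 bases for rises and 1388 bases for falls against 3115 bases for all members.

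The 12 knockout rises named by size of change among well expressed genes included Gdf9, Npm2, Khdc1a and Elobl, all also higher at P5 in the controls. The rule took genes with a mean of at least 5 TPM in a group and no overlap between the ages. Gdf9, the oocyte growth factor that acts on granulosa cells, was at 3.96 and 1.38 TPM at P1 and 166.0 and 222.0 TPM at P5 in the knockout (log2 change 5.81, SE 0.407, adjusted p = 1.15e-05). In the controls it went from 27.6 and 37.4 TPM to 496.0 and 487.4 TPM (log2 change 3.90), so the knockout groups lay below the control groups at each age. Npm2, a histone chaperone that the egg stores for sperm and embryo chromatin, was at 1.73 and 6.70 TPM at P1 and 154.3 and 216.2 TPM at P5 in the knockout. Its control values were 41.9 and 39.1 TPM and then 356.1 and 306.2 TPM, again above the knockout at both ages. Khdc1a, of an oocyte KH-domain family, was at 2.42 and 1.54 TPM and then 250.2 and 123.4 TPM in the knockout, and at 10.1 and 5.55 TPM and then 619.4 and 562.0 TPM in the controls. Elobl, named for its likeness to elongin B, had the lead in both genotypes, from 4.83 and 6.38 TPM to 655.5 and 390.1 TPM in the knockout (log2 change 6.27, adjusted p = 2.79e-07) and from 12.4 and 21.8 TPM to 1818 and 1977 TPM in the controls. The rule required that the ages not overlap in the knockout, and for Elobl and Khdc1a the control rule required it as well. For Gdf9 and Npm2 the control ages did not overlap either.

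The other 8 of the 12 were Pabpn1l, Rln3, Cyba, Noto, Tsga10ip, Mt4, Tubg2 and Mef2b, with log2 changes of 5.04 to 5.62. Rln3, a relaxin family hormone, and Tubg2, a gamma tubulin, also rose in the controls. Pabpn1l, a poly(A)-binding protein of oocytes and early embryos, rose in both genotypes, to 98.1 and 165.9 TPM in the P5 knockouts and to 54.7 and 6.88 TPM in the P5 controls. Cyba, a membrane subunit of NADPH oxidase, went from 26.7 and 4.68 TPM to 516.6 and 507.1 TPM in the knockout, while the P5 controls were at 215.3 and 17.5 TPM. For Pabpn1l and Cyba, then, P5 control replicate 1 was many times above replicate 2. Mt4, a metallothionein, rose in the knockout from 0 and 0.679 TPM to 40.0 and 56.0 TPM, and the P5 controls were at 43.9 and 10.9 TPM. The calls of Cyba, Mt4 and Mef2b did not hold when single knockout libraries were left out (Cyba without P1 replicate 2, P5 replicate 1 or P5 replicate 2, Mt4 without P1 replicate 1, P5 replicate 1 or P5 replicate 2, and Mef2b without any 1 of the 4), and the calls of the other 9 held under every alternative run.

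All 3 zona pellucida genes, which encode the coat of the egg, rose in both genotypes, beside 3.89% of all tested genes in the knockout. Zp3 went from 29.9 and 17.1 TPM to 487.6 and 619.6 TPM in the knockout (log2 change 4.54, SE 0.333) and from 74.4 and 134.3 TPM to 1283 and 1536 TPM in the controls. Zp1 went from 39.1 and 18.8 TPM to 318.5 and 312.4 TPM in the knockout and from 12.9 and 12.6 TPM to 493.9 and 415.1 TPM in the controls. Zp2 went from 183.7 and 121.2 TPM to 680.9 and 560.2 TPM in the knockout and from 138.5 and 186.2 TPM to 1092 and 1104 TPM in the controls. The P5 knockout libraries were below the P5 controls for all 3, and the knockout P1 libraries were below the P1 controls for Zp3 and above them for Zp1. The difference in age change did not pass the test for any of the 3 (adjusted p = 0.173, 0.812 and 0.917 for Zp1, Zp2 and Zp3).

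**Figure D3:**
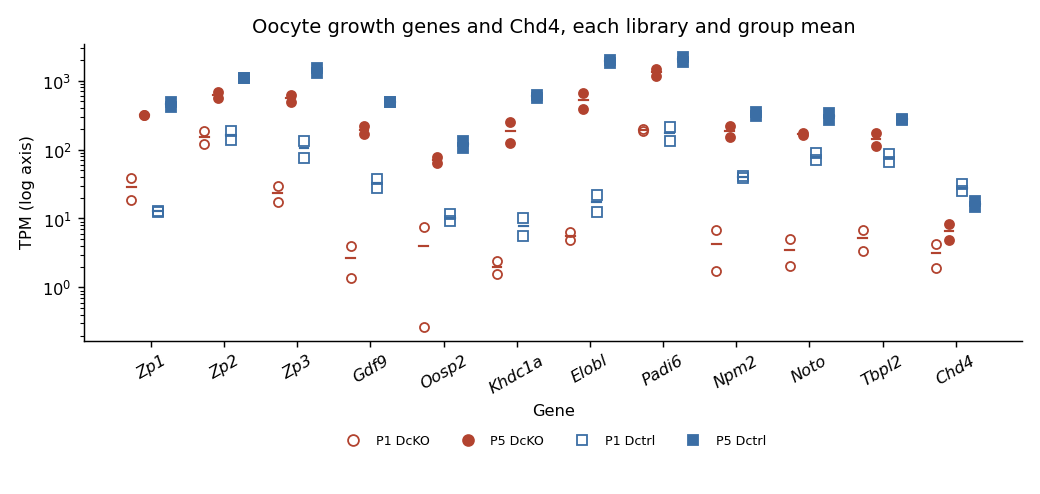
TPM on a log axis of 11 oocyte growth genes and Chd4 in each P1 and P5 library, with group means as short bars. Filled P5 symbols lie above open P1 symbols of the same genotype for every growth gene, and the P5 knockout points lie below the P5 control points for each of these 11.

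Of 6 secreted factors of the oocyte that were members, 3 rose in the knockout (Gdf9, Oosp1 and Oosp2) and none fell. The list median was 2.43 against 3.03 in the controls, where Oosp3 rose as well. For this list and those that follow, the share of all tested genes called higher was 3.89% in the knockout and 2.72% in the controls. Bmp15, the partner of GDF9, was at 0 and 0.0295 TPM at P1 and 2.82 and 3.05 TPM at P5 in the knockout, which did not pass the test (adjusted p = 0.0860). Oosp2 went from 7.58 and 0.266 TPM to 64.7 and 76.9 TPM, and lost its call without P1 replicate 2 or without either P5 knockout library. In the subcortical maternal complex, a protein assembly under the egg membrane that early embryos need, 4 of 7 members rose in the knockout and 5 of 7 in the controls. Ooep went from 210.6 and 186.3 TPM to 950.6 and 721.0 TPM, a log2 change of 2.06 in the knockout and 2.21 in the controls. Padi6 went from 200.5 and 184.8 TPM to 1165 and 1485 TPM in the knockout. Khdc3 and Nlrp4f were the other 2. Nlrp5, also called Mater, was at 371.4 and 341.6 TPM and then 649.6 and 851.3 TPM in the knockout (adjusted p = 0.118), and it rose in the controls, as did Tle6. Of 6 other oocyte NLRP genes, only Nlrp4g rose, in both genotypes, from 27.6 and 4.67 TPM to 80.4 and 49.4 TPM in the knockout and from 7.84 and 10.7 TPM to 82.4 and 75.9 TPM in the controls. Its knockout call was lost without P1 replicate 2, P5 replicate 1 or P5 replicate 2, and that of Nlrp4f without P1 replicate 2 or P5 replicate 1.

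Among 12 other maternal effect genes, 7 rose in the knockout and 8 in the controls, beside 3.89% and 2.72% of all tested genes. H1f8, the oocyte linker histone, went from 33.8 and 46.1 TPM to 530.0 and 657.2 TPM in the knockout (log2 change 3.87, adjusted p = 4.01e-06) and from 126.9 and 158.3 TPM to 926.9 and 740.1 TPM in the controls. Nlrp14 had log2 changes of 3.85 and 4.03 in the knockout and the controls. Dppa3, which protects the maternal genome from demethylation after fertilisation, was the most abundant of them at 39446 and 39382 TPM and then 70776 and 64170 TPM in the knockout, and its controls had nearly the same values, at 42222 and 37273 TPM and then 70487 and 70694 TPM. Its rise was lost under quantile normalisation, which by construction gives the most abundant gene the same value in every library, and under a shift of each library to a common median. Zar1 and Btg4, named after their values were seen, also rose, Zar1 only to 6.02 and 7.15 TPM in the knockout against 30.5 and 24.9 TPM in the controls, a call that was lost without P1 replicate 2 or either P5 knockout library. All 4 KH-domain genes rose in both genotypes with list medians of 3.82 and 5.15. Of 5 Oas1 genes, 4 rose in both genotypes, and Oas1d went from 52.5 and 34.2 TPM to 810.4 and 673.5 TPM in the knockout and from 41.0 and 53.9 TPM to 1561 and 1530 TPM in the controls. No Obox gene reached the level of a member.

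Several oocyte gene families held calls in both genotypes, beside 3.89% of all tested genes called higher in the knockout and 2.72% in the controls. Of 13 genes of the oocyte Fbxw cluster, which encode F-box proteins, 9 rose in the knockout and 3 in the controls, with list medians of 2.31 and 0.89, and the difference had a positive sign for all 13 without passing the test for any. Fbxw24 went from 13.2 and 5.94 TPM to 199.7 and 220.7 TPM in the knockout and from 22.5 and 34.2 TPM to 249.7 and 366.1 TPM in the controls. The P1 values of the genotypes overlapped for Fbxw17, Fbxw19, Fbxw20 and Fbxw22, and for Fbxw15 both P5 knockouts were below both P5 controls, as for Fbxw24. Fbxw16 and Fbxw21 were named after their values were seen. Fbxw21 was at 0.137 and 0.110 TPM in the P1 knockouts against 8.83 and 11.7 TPM in the P1 controls, and at 12.1 and 14.8 TPM in the P5 knockouts against 10.4 and 13.8 TPM in the P5 controls (adjusted p of the difference 0.0743). Fbxw16 was at 0.186 and 0.10 TPM against 11.9 and 9.95 TPM at P1, and at 12.5 and 28.6 TPM against 18.6 and 11.7 TPM at P5 (adjusted p of the difference 0.0671). The genotypes did not overlap at P1 and overlapped at P5 for both genes. These cluster members are similar in sequence, and how reads shared between them were counted is not given. Of 5 oogenesin genes 3 rose in each genotype (medians 2.37 and 1.60), and of 5 Tcl1 family genes 3 rose in each (medians 2.58 and 1.49). The difference did not pass the test for any gene of these 2 lists, and the knockout calls of Tcl1, Tcl1b1 and Tcl1b4 were each lost when single knockout libraries were left out (P1 replicate 2 or P5 replicate 2 for all 3).

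Of 12 oocyte transcription factors and cofactors that were members, only Tbpl2 rose in the knockout and none fell (beside 5.13% of all tested genes called), with a median of -0.09 and 5 genes at an unadjusted p under 0.05. Figla was at 3665 and 3719 TPM and then 4204 and 2737 TPM, and Sohlh1 at 1132 and 1301 TPM and then 1106 and 1267 TPM, so that age groups overlapped for both. Nobox was at 174.6 and 182.5 TPM and then 256.2 and 262.1 TPM in the knockout (log2 change 0.54, adjusted p = 0.264) and at 129.7 and 138.8 TPM and then 344.6 and 341.4 TPM in the controls, where it rose (log2 change 1.35). Lhx8 and Foxo3 had log2 changes of -0.97 and -0.77 in the knockout and -0.85 and -0.61 in the controls, and neither passed the test.

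The age change of Tbpl2 and of Noto differed between genotypes. Tbpl2, a TBP relative that replaces TBP in growing oocytes, was at 6.89 and 3.40 TPM in the P1 knockouts and 172.6 and 114.1 TPM at P5, against 65.0 and 86.7 TPM and then 271.3 and 278.4 TPM in the controls. The log2 change was 4.58 in the knockout and 1.86 in the controls, a difference of 2.73 (SE 0.461, adjusted p = 0.0307). Noto, a homeobox gene best known from the notochord, was at 2.02 and 5.01 TPM in the P1 knockouts and 174.3 and 160.5 TPM at P5, against 88.5 and 69.7 TPM and then 267.0 and 340.8 TPM in the controls. Its difference was 3.37 (SE 0.412, adjusted p = 0.00654). For both genes the gap between the genotypes was wider at P1 than at P5 on the log2 scale, though not in TPM, and every knockout library lay below both controls of its age. Tsga10ip had the same form, at 1.49 and 2.09 TPM and then 144.1 and 77.5 TPM in the knockout and at 31.9 and 39.0 TPM and then 251.8 and 291.8 TPM in the controls (difference 2.36, adjusted p = 0.0246). Of these 3, only the call of Noto held whichever library was left out, and it was lost under a shift to a common library median, with the 8 libraries of P1 and P5 alone and with a replicate block. Noto lies at chr6:85423886-85428877 and Tbpl2 at chr2:24071721-24096595 (GRCm38, GENCODE M21).

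The promoters of some genes of each kind are shown because rising genes had few CG dinucleotides there. Each is the 250 bases before the RefSeq start (GRCm38.p6), printed on the gene's own strand, with every CG in capitals. Zp3 (chr5:135979855-135980104, plus strand), Elobl (chr11:88966932-88967181, minus strand), Noto (chr6:85423636-85423885, plus strand) and Tbpl2 (chr2:24096596-24096845, minus strand) rose in both genotypes. Syce3 (chr15:89410504-89410753, minus strand) fell in both, Rpl41 (chr10:128549169-128549418, minus strand) fell in both, and Syce2 (chr8:84871861-84872110, plus strand) fell in controls only, with a called difference.
Zp3: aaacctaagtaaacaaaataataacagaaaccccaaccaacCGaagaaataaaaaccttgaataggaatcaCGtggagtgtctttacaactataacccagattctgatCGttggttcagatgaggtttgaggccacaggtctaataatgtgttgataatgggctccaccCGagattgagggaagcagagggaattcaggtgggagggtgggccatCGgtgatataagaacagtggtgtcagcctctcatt
Elobl: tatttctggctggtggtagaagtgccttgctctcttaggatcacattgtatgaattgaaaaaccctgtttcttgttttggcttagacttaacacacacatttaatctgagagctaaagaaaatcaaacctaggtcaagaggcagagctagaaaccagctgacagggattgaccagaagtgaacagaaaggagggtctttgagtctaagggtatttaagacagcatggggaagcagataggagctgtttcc
Noto: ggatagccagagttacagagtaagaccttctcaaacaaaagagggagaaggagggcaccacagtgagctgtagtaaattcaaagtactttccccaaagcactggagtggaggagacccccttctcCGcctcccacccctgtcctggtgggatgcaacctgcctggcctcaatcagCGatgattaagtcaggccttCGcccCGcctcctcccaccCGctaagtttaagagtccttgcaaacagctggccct
Tbpl2: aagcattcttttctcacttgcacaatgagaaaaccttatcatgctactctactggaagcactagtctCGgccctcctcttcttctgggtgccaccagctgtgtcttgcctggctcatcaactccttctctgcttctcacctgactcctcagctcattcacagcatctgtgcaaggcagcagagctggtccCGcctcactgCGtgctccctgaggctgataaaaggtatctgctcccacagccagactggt
Syce3: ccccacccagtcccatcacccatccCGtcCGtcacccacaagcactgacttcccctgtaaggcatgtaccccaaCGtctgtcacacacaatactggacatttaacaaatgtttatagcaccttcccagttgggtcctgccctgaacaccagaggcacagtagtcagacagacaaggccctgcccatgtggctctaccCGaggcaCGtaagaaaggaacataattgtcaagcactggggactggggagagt
Rpl41: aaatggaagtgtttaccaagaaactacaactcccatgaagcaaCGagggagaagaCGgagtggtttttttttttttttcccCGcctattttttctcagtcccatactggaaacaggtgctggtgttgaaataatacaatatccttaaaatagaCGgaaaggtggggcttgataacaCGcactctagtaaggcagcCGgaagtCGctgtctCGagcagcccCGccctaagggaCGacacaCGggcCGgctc
Syce2: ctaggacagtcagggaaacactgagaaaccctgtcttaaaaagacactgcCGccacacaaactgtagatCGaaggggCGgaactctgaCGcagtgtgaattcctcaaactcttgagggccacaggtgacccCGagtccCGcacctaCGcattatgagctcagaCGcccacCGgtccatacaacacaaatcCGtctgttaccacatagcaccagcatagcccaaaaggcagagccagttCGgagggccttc

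These windows hold 5 CG in Zp3, 0 in Elobl, 5 in Noto, 3 in Tbpl2, 5 in Syce3, 12 in Rpl41 and 11 in Syce2. RefSeq gives another start for Syce3 and for Syce2, whose windows hold 11 and 24 CG and are not printed because they overlap the transcript from the start shown. A promoter was available for 10225 of the 15882 members, and for 496 of the 794 knockout rises and 130 of the 253 knockout falls. The median number of CG in 250 bases was 6 for the knockout rises, 11 for the knockout falls and 15 for members that were not called. It was 7 for the genes that rose in both genotypes, 18 for those that fell in both, and 19 for those that fell in controls and were not called as falls in the knockout. Median GC content followed the same order for rises (54%), falls (56.4%) and uncalled members (59.2%). Over all promoters of the table, which include genes silent in oocytes, the median was 6 CG and 52.4% GC. The rises thus had the same median number of CG as all promoters, and fewer than the other members. Known factor motifs were searched on both strands. The E-box CACGTG was in 5.94% of the promoters of knockout rises and 6.02% of all promoters, the homeobox core TAATTA or TAATTG in 8.32% and 11.3%, the TATA box TATAAA in 10.7% and 12.4%, and the STRA8 motif CNCCTCAG in 7.47% and 6.42%. Among the promoters of all members the shares were 8.54%, 7.14%, 7.17% and 7.48%, in the same order, so for the homeobox core and the TATA box the rises lay below all promoters and above the members. The Zp3 window has a CACGTG that starts 181 bases before the gene's start, and the Tbpl2 window a CTCCTCAG that starts 107 bases before it. The Syce3 window has a TAATTG 31 bases and a TTTATA, the TATA box on the other strand, 140 bases before the start.

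The knockout falls included germ cell genes that also fell in the controls, such as Syce3 and Tex101. The 12 named knockout falls were Snord49a, Syce3, Mir6351, Tsga8, Tex101, Snord65, Cetn1, Cldn34b4, Serp2, Arl9, Timp1 and Pifo, with log2 changes of -5.17 to -2.92. Syce3, a central element protein of the synaptonemal complex, was at 421.2 and 430.3 TPM at P1 and 21 and 32.8 TPM at P5 in the knockout (log2 change -3.97, SE 0.610, adjusted p = 0.00317). Its control values were nearly the same, at 502.6 and 410.9 TPM and then 23.8 and 18.1 TPM. Tex101, a germ cell surface protein, went from 647.1 and 716.3 TPM to 35.4 and 131.8 TPM in the knockout and from 537.8 and 482.6 TPM to 13.5 and 0.870 TPM in the controls. Its fall was called in both genotypes, with log2 changes of -3.29 and -6.61, and the knockout P5 libraries stayed above both P5 controls, without a called difference (adjusted p = 0.354). Ly6k, which encodes a partner of TEX101, was at 297.2 and 381.8 TPM and then 165.7 and 272.6 TPM in the knockout, without a call in either genotype. Tsga8, a testis-specific gene by name, went from 381.9 and 430.1 TPM to 25.5 and 44.6 TPM in the knockout and from 135.3 and 156.6 TPM to 33.0 and 21.8 TPM in the controls.

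Arl9, a small GTPase of the ARF-like family, and Pifo, a protein of the primary cilium, fell in both genotypes. Arl9 went from 6.74 and 11.8 TPM to 0 and 0.377 TPM in the knockout, and Pifo from 4.56 and 9.36 TPM to 0 in both P5 libraries. Serp2 fell in the knockout from 14.7 and 8.18 TPM to 0.815 and 0.0811 TPM, and was at 1.24 and 0.993 TPM in the P1 controls. The 3 small RNAs rest on few reads of short genes. Snord49a, 72 bases long, had 39 and 16 recovered reads in the P1 knockouts and 0 in both at P5, Snord65, also 72 bases, had 18 and 6 and then 0 and 1, and Mir6351, 99 bases, had 7 and 29 and then 0 and 0. In the controls Mir6351 also went from 4 and 9 reads to 0 in both. Snord49a went there from 3 and 1 reads to 3 and 11, and Snord65 from 0 and 2 to 8 and 2, so neither fell in the controls. The calls of Syce3, Mir6351, Serp2, Arl9 and Pifo held under every alternative run. The call of Snord49a was lost without P1 replicate 1 or either P5 knockout library, and that of Tex101 without P1 replicate 1, P1 replicate 2 or P5 replicate 1 of the knockout or either P1 control. Those of Tsga8, Snord65, Cetn1, Cldn34b4 and Timp1 were each lost without 2 or 3 of the 4 knockout libraries.

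Read from the control side, the largest control rises (Elobl, Khdc1a, Khdc1c, Zp1 and Oas1d) all rose in the knockout, and the largest control falls (Tex101, Sval1, Syce3, Krt8 and Taf7l) were matched in part. Tex101 and Syce3 fell in the knockout as well. Taf7l, a germ cell relative of the TFIID subunit TAF7, was at 281.7 and 287.4 TPM and then 96.3 and 118.6 TPM in the knockout (log2 change -1.40, adjusted p = 0.393), against 291.0 and 278.2 TPM and then 41.7 and 4.79 TPM in the controls. Krt8, an epithelial keratin, was at 23.1 and 34.1 TPM and then 7.30 and 11.1 TPM in the knockout (adjusted p = 0.335) and at 51.9 and 75.1 TPM and then 7.96 and 0.113 TPM in the controls. Sval1 was at 42.1 and 28.9 TPM and then 0 and 3.84 TPM in the knockout (adjusted p = 0.0646). Each of these 3 was lower at P5 in both knockout libraries without passing the test, and none had a called difference between genotypes.

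Of 11 synaptonemal and HORMA domain genes, only Syce3 was called in the knockout (beside 1.24% of all tested genes lower), with 3 at an unadjusted p under 0.05 and 8 with a change above 0, while 5 fell in the controls (beside 1.98%). The list median was 0.25 in the knockout and -0.95 in the controls, and the difference had a positive sign for all 11. Syce2, a central element protein, was at 1749 and 1669 TPM and then 1679 and 1887 TPM in the knockout, and at 2026 and 1824 TPM and then 1077 and 919.0 TPM in the controls. The P5 knockout libraries overlapped the P1 knockouts and lay above both P5 controls, and the difference in age change was 1.01 (SE 0.154, adjusted p = 0.0190). Sycp1 and Hormad1, named after their values were seen, fell in the controls and were not called in the knockout or for the difference, and for both the P5 knockouts lay above the P5 controls. Sycp1, the transverse filament protein, was at 1212 and 1477 TPM and then 1055 and 1188 TPM in the knockout and at 1381 and 1367 TPM and then 569.1 and 366.3 TPM in the controls (adjusted p of the difference 0.179), so both P5 knockouts were below both P1 knockouts. Hormad1, an axis protein that is removed where chromosomes synapse, was at 407.2 and 525.1 TPM and then 553.9 and 763.4 TPM in the knockout and at 426.5 and 527.1 TPM and then 233.6 and 148.8 TPM in the controls (adjusted p of the difference 0.152). Sycp2 was at 39.9 and 72.0 TPM and then 21.4 and 29.3 TPM in the knockout (log2 change -1.07, adjusted p = 0.104), and fell in the controls (log2 change -1.76). Summed over the 11 genes, the P1 libraries of both genotypes held 10777 to 11364 TPM, the P5 knockouts 10613 and 11780 TPM and the P5 controls 8076 and 7270 TPM.

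**Figure D4:**
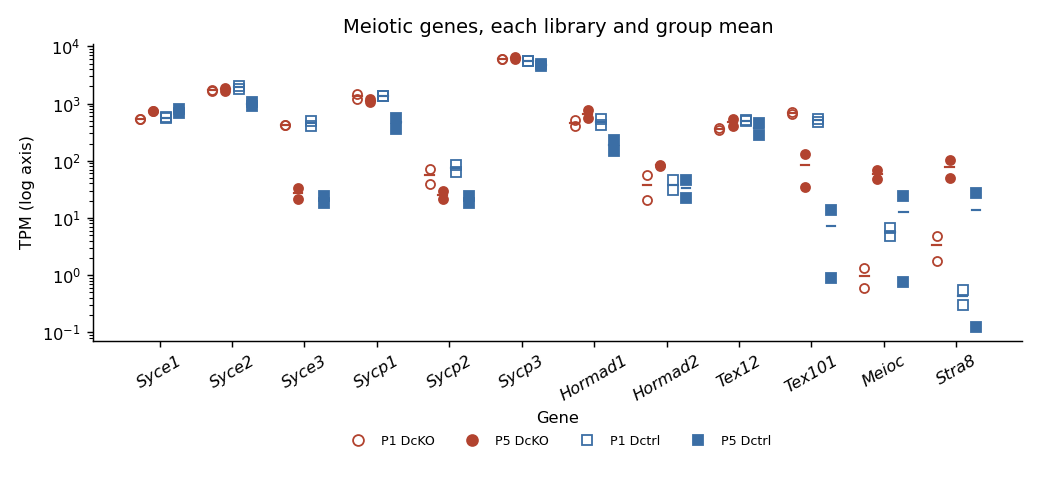
TPM on a log axis of 12 meiotic genes in each P1 and P5 library, with group means as short bars. Syce3 dropped in both genotypes, and the P5 controls (filled squares) lie below the P5 knockouts (filled circles) for Syce2, Sycp1 and Hormad1, while the 2 P5 controls are far apart for Tex101, Meioc and Stra8.

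The call of Syce2 was lost when P1 knockout replicate 1, P1 knockout replicate 2, P5 knockout replicate 2, P1 control replicate 1 or P5 control replicate 2 was left out. Of 24 genes of meiotic recombination, none was called for the difference or in the knockout by limma, and 3 fell in the controls. At an unadjusted p under 0.05 the list held 4 genes for the difference and 6 in the knockout. Its medians were 0.23 in the knockout and -0.29 in the controls. Beside these counts, 0.313% of all tested genes were called for the difference, 5.13% in the knockout and 1.98% lower in the controls. Spo11, which makes the meiotic DNA breaks, was at 6.30 and 3.29 TPM and then 1.13 and 4.94 TPM in the knockout, and at 5.88 and 7.80 TPM and then 0 and 0 TPM in the controls. Spata22 was at 20.2 and 29.3 TPM and then 7.75 and 14.4 TPM in the knockout, and at 30.3 and 48.3 TPM and then 4.43 and 0 TPM in the controls. Both were named after their values were seen, and in both the P5 knockouts were above the P5 controls. Of 9 members of the meiotic cohesin and telomere tethering list, none was called in either genotype by limma. At an unadjusted p under 0.05 it held 2 in the knockout and 1 in the controls. Over all tested genes, 5.13% were called in the knockout and 4.7% in the controls. Lists of this size would hold few calls at these shares, and nothing is read from the missing calls of either list.

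Of 6 genes of meiotic initiation, 2 rose in the knockout, beside 3.89% of all tested genes. Meioc, which stabilises the meiotic programme with YTHDC2, went from 1.33 and 0.586 TPM to 48.0 and 69.2 TPM (log2 change 4.93, SE 1.02, adjusted p = 0.0165). Its controls were at 4.91 and 6.57 TPM at P1 and 24.3 and 0.745 TPM at P5. Stra8, the retinoic acid responsive inducer of meiosis, went from 4.90 and 1.75 TPM to 49.7 and 104.9 TPM in the knockout (adjusted p = 0.0454), and was at 0.294 and 0.556 TPM and then 27.0 and 0.123 TPM in the controls. For both genes P5 control replicate 1 lay between its partner and the P5 knockouts, and the calls were lost without any 1 of the 4 knockout libraries. Crabp1, a retinoic acid binding protein, rose in the controls (log2 change 3.15), from 73.9 and 120.1 TPM to 1467 and 483.1 TPM. In the knockout it was at 1238 and 1122 TPM at P1 and at 2698 and 3028 TPM at P5. That knockout change did not pass the limma test (log2 change 1.28, adjusted p = 0.282), though the ages did not overlap.

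Some genes of the mitochondrion and the ribosome fell by small amounts in both genotypes. Over all tested genes, 1.24% were called lower in the knockout and 1.98% in the controls, and 3.89% and 2.72% higher. Of 13 mitochondrially encoded genes, 4 fell in the knockout and 4 in the controls, with list medians of -0.71 and -0.83. mt-Nd1, a complex I subunit, went from 6600 and 7302 TPM to 3666 and 4267 TPM in the knockout and from 5029 and 5307 TPM to 2507 and 2304 TPM in the controls. mt-Co2, mt-Nd2 and mt-Nd5 were the other 3 in the knockout, and each of the 4 lost its call when some of the knockout libraries were left out. The list's sum was 25154 and 26928 TPM and then 16573 and 17889 TPM in the knockout, and 18489 and 20618 TPM and then 11610 and 14475 TPM in the controls, so the knockouts were above the controls of the same age. Of 79 cytoplasmic ribosomal protein genes, 10 fell and 1 (Fau) rose in the knockout, and 21 fell and 2 rose in the controls. Rpl41 went from 3500 and 3300 TPM to 2044 and 1843 TPM in the knockout (log2 change -0.81) and from 3667 and 3223 TPM to 1578 and 1649 TPM in the controls (log2 change -1.09). Rps23 had log2 changes of -0.48 and -0.51. Of 33 nuclear complex I genes, 3 fell in the knockout (Ndufc1, Ndufs5 and Ndufb6) and 6 in the controls. The 3 knockout calls were lost under a shift to a common library median and without any 1 of the 4 knockout libraries, and that of Ndufb6 without any 1 of the 8. Fau lost its call without P1 replicate 2 or P5 replicate 1. Since TPM are shares of a library, a fall of abundant genes also depends on what rises beside them, and Rpl41 and Rps23 lost their calls under a shift to a common library median.

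**Figure D5:**
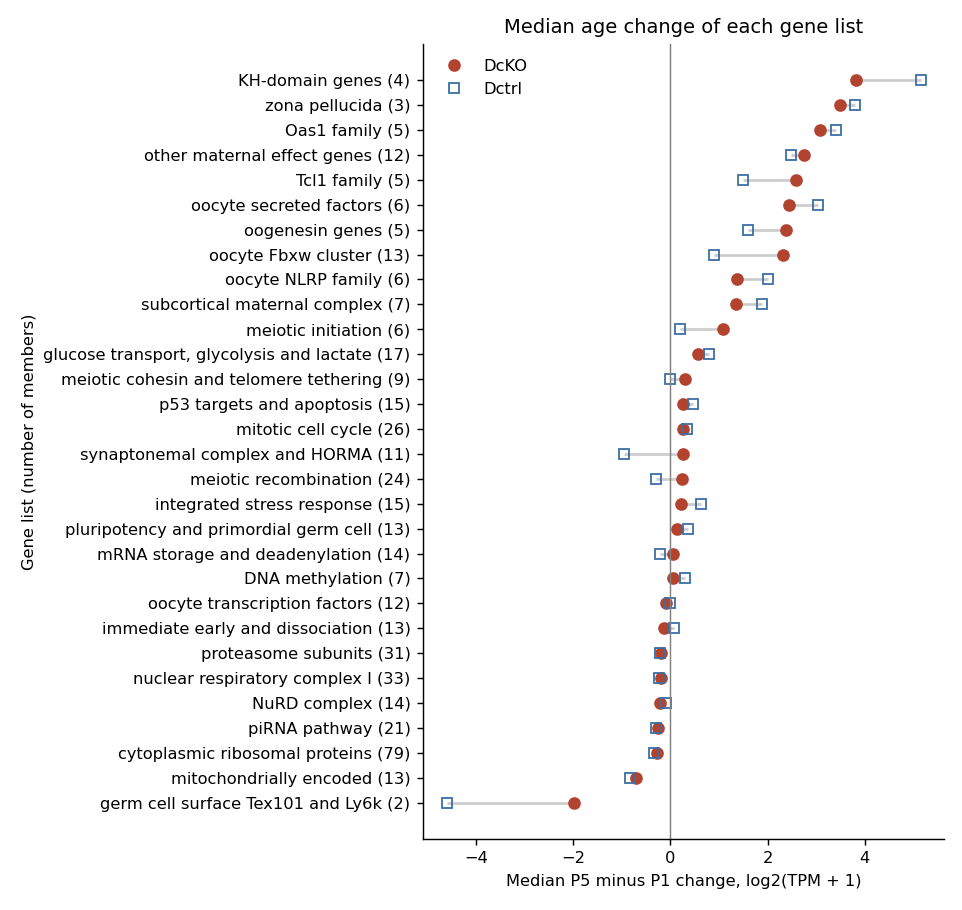
Median log2 change from P1 to P5 of each pathway list over its members, in the knockout (filled circles) and in the controls (open squares), with the number of members in brackets. The oocyte gene families lie to the right in both genotypes. The 2 symbols fall on opposite sides of 0 for the synaptonemal and recombination lists. They also do so for mRNA storage (0.06 in the knockout, -0.22 in the controls) and immediate early genes (-0.14 and 0.08).

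Other lists held 1 or 2 knockout calls each, beside 5.13% of all tested genes. Ldhb, the lactate dehydrogenase B subunit, rose from 1747 and 1727 TPM to 5579 and 6631 TPM, and was the only 1 of 17 glucose, glycolysis and lactate genes called, against 5 in the controls. Aldoa, Gapdh, Hk1 and Pfkl rose in the controls and not in the knockout, where all 4 had changes above 0. In Hk1 and Pfkl the P1 values were 2.93 and 2.22 TPM and 14.4 and 9.76 TPM in the knockout, against at most 0.0311 and 0.0375 TPM in the P1 controls. Of 7 DNA methylation genes, Dnmt3a and Dnmt3c rose in the knockout, Dnmt3a from 7.10 and 4.40 TPM to 24.9 and 24.3 TPM, and neither was called in the controls or for the difference. Each lost its call when some of the knockout libraries were left out. Of 21 piRNA pathway genes, Gtsf1, a piRNA cofactor, rose in the knockout from 1996 and 1835 TPM to 4315 and 3686 TPM, and was at 3778 and 3720 TPM and then 4325 and 4946 TPM in the controls (adjusted p of the difference 0.0671). Its P1 knockout values were below every other library. Mov10l1, a piRNA helicase, fell from 442.2 and 471.1 TPM to 150.0 and 174.1 TPM, with a similar control change (log2 changes -1.49 and -1.20), and its knockout call was lost whichever of the 8 libraries was left out. Of 14 mRNA storage and deadenylation genes, Eif4e1b rose in both genotypes, and its knockout call was lost under 8 of 17 alternatives, among them leaving out P1 replicate 1, P1 replicate 2 or P5 replicate 2.

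No member was called in the knockout, by limma, in the lists of NuRD subunits (14 members), pluripotency and primordial germ cell genes (13), p53 targets and apoptosis (15), the mitotic cell cycle (26), the integrated stress response (15), immediate early genes (13) or proteasome subunits (31). At an unadjusted p under 0.05 these lists held 2, 3, 3, 1, 2, 0 and 4 genes, in that order, beside 3223 of all 15882 members. With 5.13% of all tested genes called, lists of this size would hold few calls at the background share, and nothing is read from these counts. Their knockout medians lay between -0.21 and 0.27. In the controls, Ccnb1 and Birc5 of the cell cycle list, Nupr1 of the stress list and Nanos3 of the pluripotency list rose, and 3 proteasome genes rose and 4 fell.

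Among the 49 members whose age change differed, 35 were called in the knockout and not in the controls, and 6 in the controls and not in the knockout. Another 6 were called in both in the same direction and 2 in opposite directions. Members had to reach 1 TPM in 2 knockout libraries, so genes seen mainly in controls are left out of these counts. Outside the members, 3 of 57 control rises and 12 of 89 control falls had a called difference, and none was called in the knockout. Of the 49, 24 stayed under 5 TPM in the mean of all 4 groups and 23 had the symbol of a predicted gene or clone. Genes with a larger control change included Gsta4, a glutathione transferase, at 332.5 and 237.7 TPM and then 1115 and 986.3 TPM in the knockout against 125.2 and 144.9 TPM and then 1812 and 2581 TPM in the controls. It rose in both, with log2 changes of 1.9 and 4.0 (difference -2.10, adjusted p = 0.0111). Ckb, the brain creatine kinase, was at 528.3 and 466.7 TPM and then 383.0 and 430.4 TPM in the knockout, and rose in the controls from 135.3 and 165.4 TPM to 518.3 and 488.4 TPM (difference -2.03, adjusted p = 0.0333). In both genes the P1 knockouts were above the P1 controls and the P5 knockouts below the P5 controls. Krt87, a hair keratin, was listed at 0 in all 4 control libraries and at 0 and 0.0791 TPM in the P1 knockouts, and rose to 6.05 and 6.67 TPM in the P5 knockouts (log2 change 2.82 on the log2(TPM + 1) scale). Aadac, an esterase, went from 0.149 and 0.0601 TPM to 13.7 and 25.3 TPM in the knockout, and no control library passed 1.77 TPM. Itga11, a collagen-binding integrin, was at 7.90 and 4.46 TPM in the P1 knockouts and at most 0.461 TPM in the other 6 libraries.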

How the data were processed

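The TPM values were deposited by the authors for 16 oocyte libraries in 8 groups (the spermatogonia table of the series was not used here). Reads were processed with Trimmomatic 0.39, STAR 2.5.4b, SAMtools 1.9 and featureCounts 2.0.1 on GRCm38 (mm10), per the submitters' processing notes. The annotation, the strand setting and the handling of multi-mapping reads are not given in the sources used here. TPM were tested as log2(TPM + 1) with limma 3.58.1 (R 4.3.3, a variance trend, Benjamini-Hochberg adjustment, threshold 0.05) over 20470 genes with at least 1 TPM in at least 2 of 16 libraries. All 8 groups shared 1 estimate of spread (8 residual degrees of freedom), and the other 8 libraries served that estimate and the choice of tested genes. The fit on the 8 libraries of P1 and P5 alone tested 18247 genes. The fit was tested on simulated data. A fold change on this scale understates the change of low genes. Depth was recovered from the whole-read steps of the TPM values and GENCODE M21 exon lengths: in the 8 libraries of P1 and P5, 98.73% to 99.05% of low values (fewer than 20 reads) came out whole to a tolerance of 0.05.

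Members and the 31 pathway and 6 marker lists were chosen with earlier results of these data known. Genes were named by rule: up to 12 largest rises and 12 falls in the knockout, up to 8 each way for the difference and 5 each way in controls, with a mean of at least 5 TPM in a group and, for age changes, no overlap, no predicted symbols, and for each list up to 4 genes of smallest p, or all of lists of up to 8. Alternatives varied the pseudocount, the filter, the scaling, the libraries and a replicate block, and added a fit on depth-scaled log2 recovered reads after the data were seen.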

Additional observations from a re-analysis of the deposited data

Results flagged for a closer look

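The age change differed between knockout and control oocytes for 49 members by the test of the difference itself (limma, adjusted p under 0.05), against 0.313% of all tested genes. Differences are given as the knockout log2 change minus the control log2 change.

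Higher changes in the knockout were found for the genes described above, Noto (3.37), Tbpl2 (2.73), Tsga10ip (2.36), Krt87 (2.82) and Aadac (3.68), and for Syce2 (1.01), where the controls fell. H2bfm, a histone H2B variant gene on the X chromosome, differed by 4.83, with 0 and 0.257 TPM and then 5.96 and 11.3 TPM in the knockout, and 6.68 and 2.5 TPM and then 1.26 and 0 TPM in the controls. Defb19, a defensin, differed by 4.82, with 0 and 0 TPM and then 11.2 and 8.28 TPM in the knockout, and 1.01 and 4.45 TPM and then 0.561 and 0 TPM in the controls. Snord42b differed by 4.32 and rests on 4 and 7 recovered reads in the P5 knockouts and 0 in both P1 knockouts.

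Lower changes in the knockout were found for Itga11 (-2.46), Gsta4 (-2.10), Ckb (-2.03) and Eef1a1 (-0.73). Eef1a1, the translation elongation factor, was at 1607 and 1531 TPM and then 1240 and 1241 TPM in the knockout, and at 1269 and 1453 TPM and then 1758 and 1809 TPM in the controls, so the genotypes moved in opposite directions, with a call in the controls only. Among these 12 genes of the rule and Syce2, the call of Noto was the only one that held whichever of the 8 libraries was left out, and none held under every alternative run.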

How the results depend on the processing

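The members called were 1047 for P5 vs P1 in DcKO oocytes, 816 for P5 vs P1 in Dctrl oocytes, 49 for the age change in DcKO minus age change in Dctrl, and 366 for control age calls also called in DcKO, and counts below keep this order. The difference was the count most open to settings: it was 102 with a pseudocount of 0.1, 133 with no filter on low values, 12 with a filter at 5 TPM and 111 on depth-scaled log2 reads, an alternative chosen after seeing the data. With each library shifted to a common median (the library medians rose by 0.17 log2 from P1 to P5 in both genotypes), the 4 counts were 642, 503, 2 and 198. With only the 8 libraries of P1 and P5 they were 1848, 1938, 10 and 868. Under quantile normalisation 1036 genes were called in the knockout, 674 higher and 362 lower, so 65.1% were higher in place of 75.8%. Leaving out 1 library at a time gave 370 to 1048 knockout calls, 221 to 792 control calls, 14 to 79 calls of the difference and 149 to 256 shared calls. The lowest control, difference and shared counts were all without P1 control replicate 1. Deviations of same-numbered libraries had correlations of 0.005, 0.013, -0.007 and -0.049 over the tested genes, so no broad shared deviation was seen. These values cannot tell whether such libraries shared a litter or preparation day, which the labels do not give. With a replicate block the counts were 609, 477, 2 and 207. The cause of these shifts was not tested, beside the fewer samples or genes that some settings hold. The knockout change of Dppa3 was 0.0 under quantile normalisation, which fixes the most abundant gene by construction. Of the other values of single genes and lists, 3545 kept their direction and side of the threshold, 318 lost a call, 69 gained one and 36 moved. The sign of a small knockout list median changed under a common median or quantile normalisation for oocyte transcription factors, mRNA storage, pluripotency, DNA methylation, oocyte markers and endothelial markers. With 2 libraries a group and 8 residual degrees of freedom, small changes of low genes could not be detected.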

Other observations

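Each marker list of a cell type other than the oocyte summed to at most 0.014% of TPM in any of the 8 libraries. Single genes were not all low, and Krt18 of the supporting-cell list given earlier reached 107.6 TPM in a P1 control. The endothelial list (11 genes) summed to 29.8 and 29.4 TPM in the P1 knockouts and 29.1 and 31.0 TPM in the P5 knockouts. Its control sums were 9.30 and 13.2 TPM and then 17.2 and 5.64 TPM. Pecam1 was at 22.3 and 14.3 TPM in the P1 knockouts against 7.60 and 6.40 TPM in the P1 controls. Egfl7 was at 10.5 and 16.2 TPM in the P5 knockouts against 3.43 and 0.681 TPM in the P5 controls. Cdh5, Kdr, Flt1, Tek, Emcn and Eng never passed 2.01 TPM. The stromal list (14 genes) summed to 123.2 and 91.2 TPM and then 85.5 and 114.8 TPM in the knockout, most of it Dlk1 (up to 104.8 TPM), against 28.9 and 35.0 TPM and then 37.4 and 20.8 TPM in the controls, and Pdgfrb was listed at 0 in every library. Both lists were thus higher in every knockout library than in any control library, at each age, and their part in the results was not tested. The blood and immune list (15 genes) summed to 10.3 and 22.9 TPM and then 42.5 and 56.5 TPM in the knockout and to 10.1 and 9.82 TPM and then 46.6 and 25.3 TPM in the controls, with Adgre1 and C1qa listed at 0 throughout. The surface epithelium list (7 genes) stayed between 2.94 and 17.3 TPM. Of all members in these 4 lists, only Tie1, an endothelial receptor, was called in the knockout, from 0 and 0.495 TPM to 1.65 and 3.09 TPM, a call that was lost under 9 of 16 alternatives, among them leaving out P1 knockout replicate 1 or P5 knockout replicate 2.

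Bmp6, another BMP of the oocyte, was at 1.92 and 0.30 TPM and then 5.83 and 4.99 TPM in the knockout, and at 1.9 and 0.642 TPM and then 0.936 and 1.11 TPM in the controls, without a call in either. Mos, the kinase that holds the egg in metaphase, was at 7.25 and 15.2 TPM and then 113.4 and 108.7 TPM in the knockout (adjusted p = 0.0974), and at 95.0 and 89.8 TPM and then 200 and 241.4 TPM in the controls. As with Noto and Tbpl2, both P1 knockouts lay below both P1 controls.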
